A study of Homo sapiens with 18 samples.

Results

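Origin licensing is the loading of the replicative helicase onto DNA before S phase, and the genes examined here encode its loading factors, their inhibitor and the proteins that switch the loaded helicase on. The group held ORC1, ORC6, CDC6, CDT1, GMNN, CDC45, GINS1, GINS2, GINS3 and GINS4. A gene entered through probe sets annotated with its symbol and no other, and each gene was represented by its brightest probe set, judged by the mean of the 18 arrays. All 10 genes were found, out of 19775 genes that had a single-symbol probe set. All 10 were also among the 10717 genes tested, which needed a highest group mean of at least 4 on the log2 scale. Together the 10 genes had 18 probe sets. Of the 8 probe sets that did not stand for a gene, 5 never had a group mean at 4. These 5 belonged to GINS2 and GINS4, so a second usable probe set existed for CDC6, CDT1 and GINS3.

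The 18 arrays measured total RNA of HK-2, an immortalized line of human proximal tubule epithelium. HK-2 is known to have been immortalized with papillomavirus oncogenes, so all groups share that background. Cultures received CsA for 12, 24 or 48 h, or the control vehicle for the same times, which makes 6 groups with 3 biological replicates apiece, all from one laboratory per the labels. CsA is the usual abbreviation of cyclosporin A, an immunosuppressant that is toxic to the kidney, and the labels give no dose. The series asked which expression signatures of toxicity nephrotoxic compounds leave in these cells. All cultures were plated a day earlier and exposed near confluence in a medium that contained EGF, insulin, transferrin, hydrocortisone and selenite. Values are log2 GCRMA intensities, so that a difference of 1 is a change by a factor of 2 in array signal.

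The arrays were alike in their distributions, with medians between 2.86 and 2.92 and with 38.2% to 39.1% of probe sets at 4 or above. Of 13 proximal tubule and renal epithelium markers on the array, 4 reached a group mean of 4, namely KRT8, KRT18, PAX8 and CDH2. The proximal tubule transport and brush border markers GGT1, ANPEP, MME, ALPL, LRP2, CUBN, AQP1 and SLC34A1 did not. PAX2, a renal lineage marker like PAX8, did not either. The label was thus borne out by KRT8, KRT18, PAX8 and CDH2 alone, of which none marks the proximal tubule in particular. Of 6 fibroblast markers, COL1A1, DCN and LUM reached 4, and so did 1 of 3 podocyte markers, SYNPO. None did among the other lists, with 0 of 5 endothelial, 0 of 4 leukocyte and 0 of 4 distal nephron markers.

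An origin is licensed when the origin recognition complex, whose subunits include ORC1 and ORC6, binds DNA and, with CDC6 and CDT1, loads the MCM2-7 helicase as an inactive ring. Geminin, encoded by GMNN, binds CDT1 during S and G2 phases and so prevents a second round of loading. In S phase CDC45 and the GINS tetramer join the ring to form the active CMG helicase. Most of these genes are known targets of E2F transcription factors and are little expressed in cells that have left the cycle. In bulk RNA, a smaller share of cycling cells and less RNA per cycling cell cannot be told apart.

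RefSeq promoter windows of 300 bases, from 250 bases before to 50 bases after an annotated transcription start, were found for 9 of the 10 genes, in 12 windows on GRCh38.p14. They were searched on both strands for the E2F words TTTCCCGC, TTTCCCGG, TTTCGCGC, TTTCGCGG, TTTGCCGC, TTTGCCGG, TTTGGCGC and TTTGGCGG. An E2F word lay in a window of 7 of the 9 genes, namely CDC6, CDT1, GMNN, CDC45, GINS1, GINS2 and GINS3, and in 7 of the 12 windows. Of all 35116 windows in the table, which were not limited by chromosome, 6.19% held one. A CCAAT box lay in 8 of the 12 windows, from 7 of the 9 genes, against 34.6% of all windows, and 0 of the 12 windows held TTTGAA, the core of the cell cycle homology region, against 15.2% of all windows. A match describes the letters in a window, and the table may not hold every start of a gene. The 4 windows below set CDC6, whose mean was not lower in CsA at 48 h, beside CDT1, GMNN and ORC1, whose means were. ORC1 had no E2F word in its window. These windows were picked after the values were seen, and a link between their letters and the RNA levels was not tested. They are CDC6 at chr17:40287629-40287928 on the plus strand, CDT1 at chr16:88803539-88803838 on the plus strand, GMNN at chr6:24775163-24775462 on the plus strand, and ORC1 at chr1:52404374-52404673 on the minus strand. The ORC1 window lay at a start inside the annotated gene, which spans chr1:52372829-52409503. The GMNN window shown also lay at a start inside its gene, which spans chr6:24774937-24786099. The GMNN window at the gene's annotated beginning, chr6:24774687-24774986, held 0 E2F words and 0 CCAAT boxes. Among the CDC45 windows, the most internal, chr22:19479670-19479969, alone held an E2F word. Letters run 5′ to 3′ along the gene, and capitals mark E2F words on either strand.
CDC6: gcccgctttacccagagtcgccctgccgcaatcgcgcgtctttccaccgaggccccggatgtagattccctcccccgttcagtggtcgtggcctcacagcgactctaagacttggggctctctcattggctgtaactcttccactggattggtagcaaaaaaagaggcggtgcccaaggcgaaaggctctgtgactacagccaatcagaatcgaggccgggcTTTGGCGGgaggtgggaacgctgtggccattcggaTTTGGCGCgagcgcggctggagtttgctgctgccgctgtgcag
CDT1: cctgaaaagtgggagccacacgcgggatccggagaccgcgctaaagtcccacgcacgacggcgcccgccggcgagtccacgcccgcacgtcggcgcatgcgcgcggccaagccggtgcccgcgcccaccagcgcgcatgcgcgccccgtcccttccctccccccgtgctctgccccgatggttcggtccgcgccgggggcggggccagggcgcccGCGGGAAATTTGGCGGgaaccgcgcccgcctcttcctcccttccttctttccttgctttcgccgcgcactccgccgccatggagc
GMNN: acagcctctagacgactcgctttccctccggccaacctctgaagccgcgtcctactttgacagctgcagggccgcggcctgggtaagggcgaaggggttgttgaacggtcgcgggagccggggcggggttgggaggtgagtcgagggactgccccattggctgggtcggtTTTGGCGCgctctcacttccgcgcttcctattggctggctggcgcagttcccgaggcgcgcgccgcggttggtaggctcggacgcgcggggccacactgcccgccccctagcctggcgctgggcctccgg
ORC1: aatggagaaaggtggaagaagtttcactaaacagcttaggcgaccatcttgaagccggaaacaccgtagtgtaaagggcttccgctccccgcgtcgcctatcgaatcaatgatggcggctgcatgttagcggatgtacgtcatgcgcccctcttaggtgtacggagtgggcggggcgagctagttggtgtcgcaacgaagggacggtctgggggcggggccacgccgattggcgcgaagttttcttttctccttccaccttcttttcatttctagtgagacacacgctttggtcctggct
CDC6 and CDT1 each held 2 E2F words, and those of CDT1 lay end to end.

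**Figure D1:**
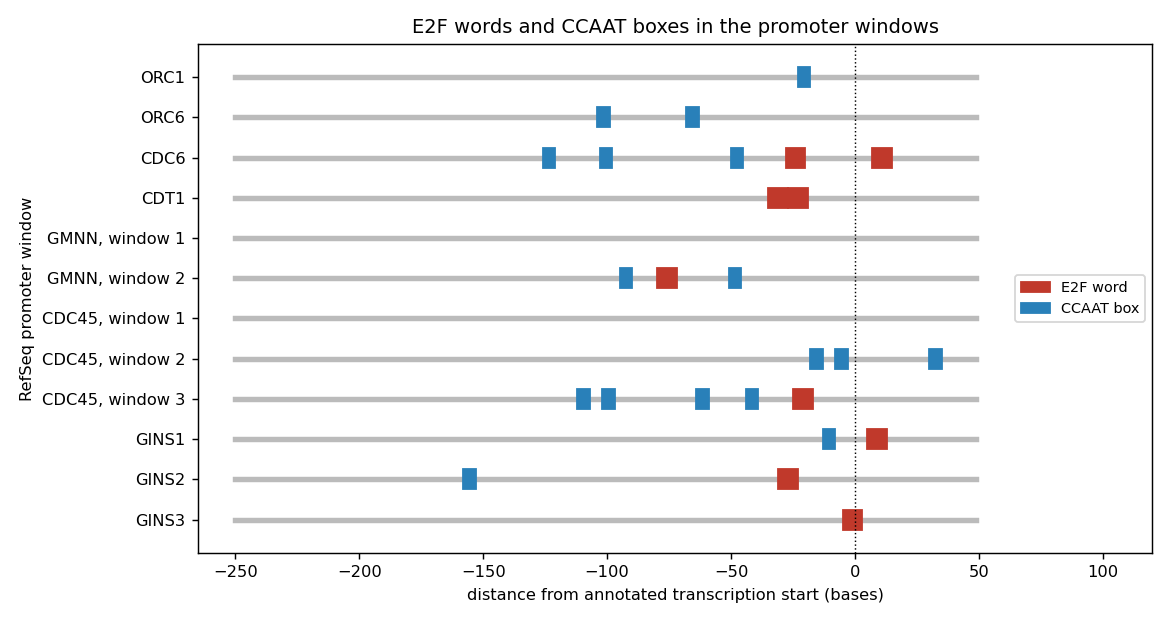
Each grey line is a RefSeq promoter window of a gene other than GINS4, with the distance in bases from the annotated start on the horizontal axis. Red blocks are E2F words and blue blocks CCAAT boxes, on either strand. Across the 7 windows that hold one, E2F words lie on both sides of the start, and ORC1 and ORC6 show CCAAT boxes alone.

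At 48 h, RNA of 9 of the 10 genes was on average lower in CsA cultures than in control cultures, and CDC6 was the one that was not. The largest mean differences were those of GINS2, CDT1 and ORC1, whose signal was 3.23-fold, 3.11-fold and 3.07-fold lower in CsA. The fit over all arrays without pairing called 0 of the 10 genes at an adjusted p below 0.05, against 0.439% of all genes tested (limma with Benjamini-Hochberg adjustment). Unadjusted p values were below 0.05 for 8 of the 10 genes and for 1719 of the 10717 genes. Arrays with the same replicate number deviated together, although the labels do not say what a number shares. With the replicate number as a block, which gives each numbered set of arrays its own offset, the fit called 8 of the 10 genes, all lower in CsA, against 10.8% of all genes. These 8 were ORC1, ORC6, CDT1, GMNN, CDC45, GINS1, GINS2 and GINS3. The median difference of the 10 genes was -1.10 on the log2 scale, against 0.00 for all genes tested.

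The blocked count at 48 h rested on single arrays and pairs. Without the CsA 48 h array of replicate 2, or without the control 48 h array of replicate 1, ORC1 alone of the 10 stayed called, against 0.607% and 1.25% of all genes. Without the CsA 48 h array of replicate 3 the block called 5 of the 10 genes (5.99% of all genes). Leaving out all arrays of replicate number 1 left 3 calls (GINS2, CDT1 and ORC1, against 2.91% of all genes), and leaving out number 2 or number 3 left 0 (0.131% and 0.914% of all genes). In the fit without a block, 6 of the 10 genes were called without the CsA 48 h array of replicate 1 and 3 without the control 48 h array of replicate 2, while calls over all genes also rose, to 5.25% and 2.48%. Fibroblast markers moved in the same direction at this time: their summed log2 values were 29.77 to 33.54 in CsA cultures and 32.78 to 36.27 in control cultures, and their part in the result was not tested. The 3′ minus 5′ difference of the ACTB control probe sets, a sign of RNA quality, spanned 0.78 to 1.10 in CsA and 0.71 to 1.21 in control arrays.

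At 24 h all 10 genes had a lower mean in CsA than in control cultures, with a median difference of -0.46, but limma called 0 of 10 with and without the block, against 0.00933% and 0.0% of all genes. Without the block, 2 of the 10 genes (GINS3 and GMNN) and 406 of all genes had an unadjusted p below 0.05, and with it 4 and 1009. At 12 h the median difference was -0.10 and the means of 8 genes were lower in CsA. The count of calls was 0 of 10 at 12 h, against 0.0% of all genes, with 0 of the 10 and 98 of all genes at an unadjusted p below 0.05. Complete separation, with all 3 CsA arrays below all 3 control arrays, was found for 0 of the 10 genes at 12 h (3.1% of all genes). It was found for 4 at 24 h (5.12% of all genes), namely GINS1, GINS2, GINS3 and GMNN. The number was also 4 at 48 h (6.77% of all genes), namely ORC1, GMNN, GINS1 and GINS2. Leaving out the CsA 24 h array of replicate 2 brought the 24 h difference to -0.32 for ORC1 and to -0.18 for GINS1. Whether the CsA difference itself changed between 24 and 48 h was tested as an interaction, and 0 of the 10 genes were called without the block and 0 with it, against 0.0373% and 0.0467% of all genes. Unadjusted p values of this interaction were below 0.05 for 2 of the 10 genes (609 of all genes) without the block and for 5 (1438 of all genes) with it.

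**Figure D2:**
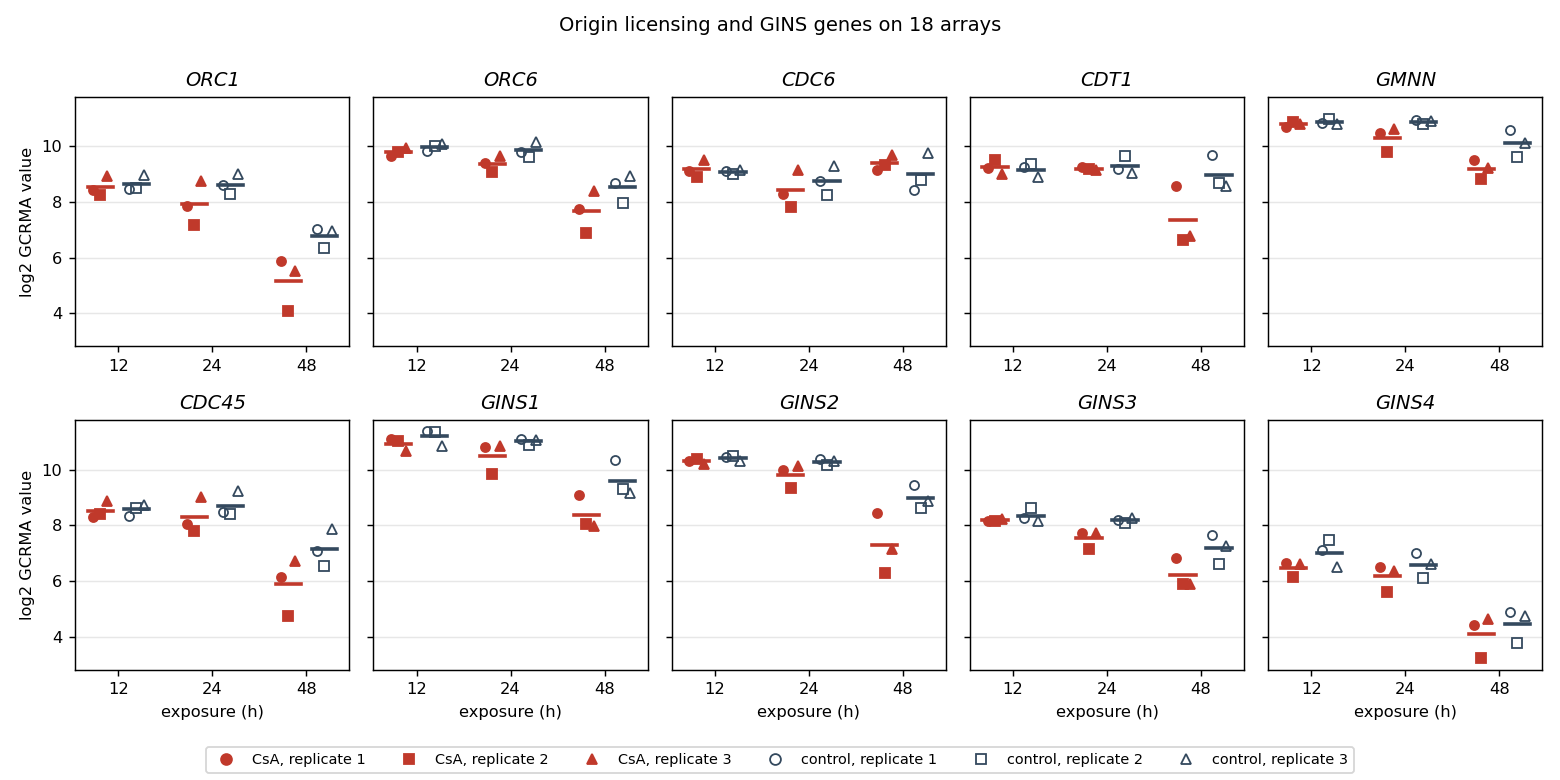
Each panel shows 1 gene, with the exposure time in hours on the horizontal axis and the log2 GCRMA value on the vertical axis. Filled red symbols are CsA arrays and open blue symbols control arrays, the shape gives the replicate number and the bars are group means of 3 arrays. At 12 h the CsA and control means are closest for CDC45, CDC6 and CDT1 and farthest apart for GINS4, and the means of the control arrays at 48 h are below those at 24 h for 9 of the 10 genes, CDC6 being the other.

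ORC1, the largest ORC subunit and one whose protein is removed and remade in each cycle, was clearly separated at 48 h. Its log2 values at this time were 5.87, 4.09 and 5.52 in CsA replicates 1, 2 and 3, and 7.03, 6.34 and 6.97 in control replicates 1, 2 and 3. All CsA arrays were below all control arrays, and replicate 2 was the lowest of both groups. The mean was 5.16 ± 0.95 in CsA and 6.78 ± 0.38 in control cultures (SD, n = 3 arrays each), a log2 difference of -1.62 with an SE of 0.44 (limma adjusted p = 0.0957, or 0.00861 with the block). At 24 h ORC1 stood at 7.86, 7.16 and 8.74 in CsA and at 8.60, 8.27 and 8.99 in control arrays. The CsA array was the lower one in each pair at 24 h, while the groups overlapped through replicate 3 (difference -0.70, SE 0.44, adjusted p = 0.999 and 0.463 with the block).

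ORC6, the smallest ORC subunit, had log2 values of 7.76, 6.87 and 8.38 in CsA and 8.68, 7.97 and 8.93 in control arrays at 48 h. Here the groups overlapped, because replicate 3 of CsA lay above replicate 2 of the control, although the CsA array was lower in each of the 3 pairs. The difference was -0.86 with an SE of 0.32 (limma adjusted p = 0.205, or 0.0287 with the block), and it was -0.46 without the CsA 48 h array of replicate 2. At 24 h the values were 9.41, 9.06 and 9.66 in CsA and 9.79, 9.62 and 10.13 in control arrays, a difference of -0.47 with an SE of 0.32 (adjusted p = 0.999, or 0.528 with the block). The paired differences of ORC6 at 24 h were close to each other, from -0.56 to -0.38.

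The other ORC subunits had 48 h differences near 0. ORC2, ORC3, ORC4 and ORC5 were all tested, and limma called 0 of 4 at 48 h without the block and 0 with it. Their median difference at 48 h was -0.03 on the log2 scale. The lowest p values among them belonged to ORC3, at 10.20 ± 0.07 in CsA and 10.07 ± 0.03 in control arrays, and to ORC4, at 10.55 ± 0.15 in CsA and 10.72 ± 0.24 in control arrays (SD, n = 3 each). Their adjusted p values were 0.55 and 0.654.

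CDC6, the ATPase that joins ORC to load the helicase, did not follow the others at 48 h. Its log2 values were 9.13, 9.33 and 9.69 in CsA and 8.42, 8.79 and 9.75 in control arrays. CsA was higher in replicates 1 and 2 and nearly equal in replicate 3, and the groups overlapped. The mean was 9.39 ± 0.29 in CsA and 8.99 ± 0.69 in control cultures (SD, n = 3 each), a difference of 0.40 with an SE of 0.37 (limma adjusted p = 0.681, or 0.265 with the block). Leaving out single arrays or numbers moved it between 0.12 (without control 48 h replicate 1) and 0.78 (without control 48 h replicate 3). The second CDC6 probe set gave 8.85, 9.02 and 9.38 in CsA and 8.15, 8.52 and 9.51 in control arrays. Both probe sets thus showed the same order of arrays within pairs. At 24 h CDC6 read 8.28, 7.80 and 9.15 in CsA and 8.74, 8.25 and 9.31 in control arrays, lower in CsA in every pair (difference -0.36, SE 0.37, adjusted p = 0.999, or 0.673 with the block). That difference was -0.05 without the CsA 24 h array of replicate 2 and -0.72 without that of replicate 3.

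Set against the mean difference of the other 9 genes in the same pair, the CDC6 difference at 48 h was 1.67, 1.97 and 1.08 higher in pairs 1, 2 and 3. At 24 h the same measure was -0.06, 0.33 and 0.09. This contrast was chosen after the values were seen and is a description without a test. Over the 18 arrays the Pearson r of CDC6 with the mean of the other genes was -0.21, while for the remaining 9 genes this r ran from 0.78 (CDT1) to 0.98 (ORC1). These arrays share groups and replicate numbers, so the coefficients describe the arrays and carry no test.

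CDT1, the partner of CDC6 in helicase loading, was at 8.58, 6.64 and 6.78 in CsA and at 9.69, 8.67 and 8.56 in control arrays at 48 h. Replicate 1 was the highest array of both groups, and in CsA it stood apart from the other arrays, just above the lowest control array. The mean was 7.33 ± 1.08 in CsA and 8.97 ± 0.63 in control cultures (SD, n = 3 each). The difference of -1.64 had an SE of 0.42 (limma adjusted p = 0.0817, or 0.0177 with the block). The second CDT1 probe set read 6.69, 5.11 and 6.12 in CsA and 7.17, 6.83 and 7.45 in control arrays, so that every CsA array was below every control array there. At 24 h CDT1 showed no such difference, with 9.25, 9.18 and 9.16 in CsA and 9.17, 9.64 and 9.05 in control arrays. The 24 h difference was -0.09 with an SE of 0.42, and its sign turned to 0.0065 when the probe sets of the gene were averaged and to 0.10 without replicate number 2. CDT1 had the lowest interaction estimate of the 10 genes, -1.55 with an SE of 0.59, which did not pass (limma adjusted p = 0.867, or 0.262 with the block).

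GMNN, which encodes the CDT1 inhibitor geminin, had 48 h values of 9.51, 8.81 and 9.20 in CsA and 10.57, 9.63 and 10.11 in control arrays. All CsA arrays lay below all control arrays, and the 3 pairs differed by nearly the same amount, from -1.06 to -0.82. The mean was 9.18 ± 0.35 in CsA and 10.10 ± 0.47 in control cultures (SD, n = 3 each), a difference of -0.93 with an SE of 0.24 (limma adjusted p = 0.0884, or 0.019 with the block). At 24 h the groups were also separate, at 10.48, 9.79 and 10.63 in CsA and 10.94, 10.80 and 10.90 in control arrays (difference -0.58, SE 0.24, adjusted p = 0.999, or 0.407 with the block). The control arrays at 24 h lay close together, and the wider spread in CsA came from replicate 2.

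CDC45, the helicase cofactor recruited when an origin fires, gave 6.15, 4.74 and 6.73 in CsA and 7.06, 6.53 and 7.86 in control arrays at 48 h. Replicate 3 was the highest and replicate 2 the lowest in both groups, and the groups overlapped through CsA replicate 3. The mean was 5.88 ± 1.02 in CsA and 7.15 ± 0.67 in control cultures (SD, n = 3 each). The difference was -1.28 with an SE of 0.47 (limma adjusted p = 0.201, or 0.0179 with the block), and -0.71 without the CsA 48 h array of replicate 2. At 24 h CDC45 stood at 8.04, 7.78 and 9.02 in CsA and at 8.46, 8.39 and 9.23 in control arrays, a difference of -0.41 with an SE of 0.47. The 24 h difference had an adjusted p of 0.999 without and 0.702 with the block.

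GINS1, also called PSF1, is 1 of the 4 GINS subunits, and at 48 h it read 9.10, 8.05 and 7.96 in CsA and 10.33, 9.30 and 9.16 in control arrays. Every CsA array was below every control array, and the paired differences were close, from -1.25 to -1.19. The difference of -1.22 had an SE of 0.35 (limma adjusted p = 0.111, or 0.0187 with the block). At 24 h the values were 10.81, 9.85 and 10.85 in CsA and 11.09, 10.89 and 11.05 in control arrays. The groups did not overlap at 24 h either, and replicate 2 of CsA was far below the other arrays (difference -0.51, SE 0.35, adjusted p = 0.999, or 0.594 with the block). At 12 h GINS1 was at 11.09, 11.01 and 10.68 in CsA and at 11.37, 11.36 and 10.86 in control arrays, lower in CsA in each pair by 0.17 to 0.35 (difference -0.27, SE 0.35, adjusted p = 1.0).

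GINS2, or PSF2, had the lowest 48 h difference of the 10 genes. Its values were 8.45, 6.29 and 7.13 in CsA and 9.44, 8.64 and 8.86 in control arrays. The groups were separate, and the pair difference was larger in pairs 2 and 3 (-2.35 and -1.73) than in pair 1 (-0.99). The mean was 7.29 ± 1.09 in CsA and 8.98 ± 0.41 in control cultures (SD, n = 3 each), a difference of -1.69 with an SE of 0.39 (limma adjusted p = 0.0655, or 0.0125 with the block). At 24 h GINS2 was at 9.98, 9.34 and 10.14 in CsA and at 10.37, 10.15 and 10.29 in control arrays. All 3 CsA arrays at 24 h were below the control arrays, by a mean of -0.45 with an SE of 0.39 (adjusted p = 0.999, or 0.721 with the block).

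GINS3, or PSF3, stood at 6.83, 5.88 and 5.89 in CsA and at 7.65, 6.61 and 7.25 in control arrays at 48 h. The CsA array was lower in all 3 pairs, and the groups overlapped because CsA replicate 1 was above control replicate 2. The difference was -0.97 with an SE of 0.27 (limma adjusted p = 0.108, or 0.0271 with the block), and the second GINS3 probe set gave -1.07. At 24 h GINS3 read 7.71, 7.15 and 7.73 in CsA and 8.20, 8.08 and 8.27 in control arrays, without overlap. Its 24 h difference was -0.65 with an SE of 0.27 (adjusted p = 0.999, or 0.425 with the block).

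GINS4, or SLD5, was near background at 48 h, with 4.43, 3.22 and 4.64 in CsA and 4.89, 3.77 and 4.74 in control arrays. Replicate 2 was below 4 in both groups, where GCRMA compresses differences. The 48 h difference was -0.37 with an SE of 0.41 (limma adjusted p = 0.739, or 0.467 with the block), and its sign turned to 0.06 without the CsA 48 h array of replicate 2. At 24 h GINS4 was at 6.51, 5.62 and 6.37 in CsA and 7.01, 6.11 and 6.62 in control arrays. CsA was lower in each pair at 24 h, with overlapping groups (difference -0.41, SE 0.41, adjusted p = 0.999, or 0.742 with the block). At 12 h the difference of -0.57 (SE 0.41, adjusted p = 1.0) came mostly from pair 2, which differed by -1.33, while pair 3 differed by 0.10.

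**Figure D3:**
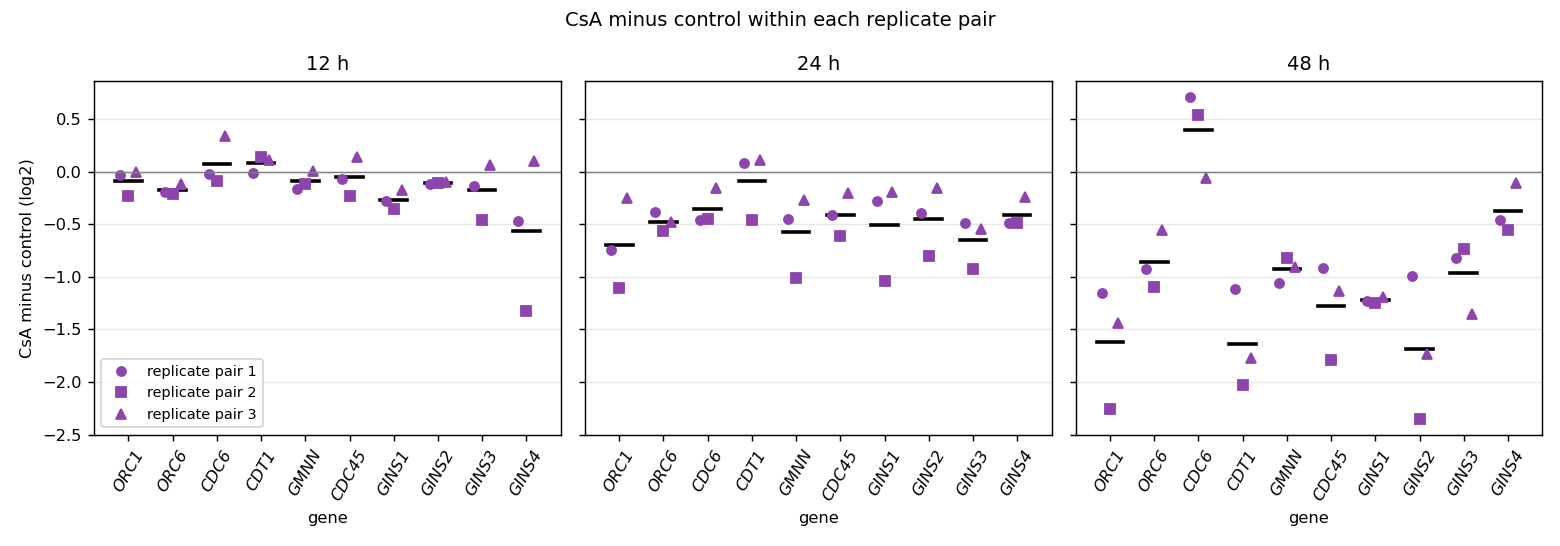
The vertical axis is the log2 difference, CsA minus control, within each replicate pair. The 3 panels are 12, 24 and 48 h, symbols are the 3 pairs, and black bars are their means. At 48 h all pairs lie below 0 for 9 genes, while CDC6 lies above 0 in pairs 1 and 2 and at -0.06 in pair 3.

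The 3 pairs were alike in direction at the later times. At 48 h the 10 genes had a median difference of -0.96 in pair 1, against -1.17 and -1.16 in pairs 2 and 3. At 24 h it was -0.44, -0.71 and -0.22, and at 12 h it was -0.13, -0.22 and 0.04. Pair 2 had the lowest median at each time, with pair 3 next to it at 48 h. For 5 of the 10 genes replicate 3 lay on the same side of the mean of replicates 1 and 2 in every group, though not always outside both. It was above the mean of replicates 1 and 2 in 6 of 6 groups for CDC45 (by 0.84 on average), CDC6 (0.68), ORC1 (0.61) and ORC6 (0.49). For CDT1 it was below in 6 of 6 groups, by -0.43 on average. The other 5 genes (GINS1, GINS2, GINS3, GINS4 and GMNN) changed sign between groups, and the size of the offset also varied, from 0.25 to 1.28 for CDC45.

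The control cultures themselves changed between 24 and 48 h. In limma, 8 of the 10 genes fell in control cultures at 48 h relative to control cultures at 24 h, against 14.5% of all genes called in either direction, and the same number was called with the block (32.6% of all genes). ORC1 was at 6.78 ± 0.38 in control cultures at 48 h and at 8.62 ± 0.36 at 24 h (SD, n = 3 each), a difference of -1.84 with an SE of 0.44 (adjusted p = 0.015). GINS4 fell by 2.11 (SE 0.41, adjusted p = 0.00489), to 48 h values near background where GCRMA compresses differences, and CDC45 fell by 1.54 (SE 0.47, adjusted p = 0.0413). The 5 others that fell were GINS1 (-1.41), ORC6 (-1.32), GINS2 (-1.29), GINS3 (-1.01) and GMNN (-0.77), with adjusted p values between 0.0158 and 0.0458. Neither loading factor was called in the controls: CDT1 differed by -0.31 (SE 0.42, adjusted p = 0.677) and CDC6 by 0.22 (SE 0.37, adjusted p = 0.749). With the block but without replicate number 1, CDT1 was also called lower. The median of the 10 genes was -1.31, against 0.00 for all genes.

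The count of 8 in the controls was sensitive to single arrays without the block. It was 1 (GINS4) without control 24 h replicate 3 or control 48 h replicate 2 (6.1% and 6.97% of all genes). It was 3 without control 24 h replicate 1 (7.04%) and 4 without control 48 h replicate 3 (10.6%). The count was 5 without control 24 h replicate 2, and also 5 without any of 5 arrays outside the comparison, namely CsA 12 h replicate 1 or 2, CsA 24 h replicate 1 and control 12 h replicate 1 or 2, with 12.0% to 12.9% of all genes called. Without replicate numbers 1, 2 and 3 it was 1, 2 and 4 (2.47%, 3.06% and 17.1% of all genes). With the block it stayed between 5 and 9, and it was 5 without replicate number 3 (22.1% of all genes).

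In CsA cultures the change between 24 and 48 h was called for 9 of the 10 genes, all of which fell, against 25.2% of all genes in either direction. The largest differences were -2.76 for ORC1 (SE 0.44, adjusted p = 0.000602), -2.53 for GINS2 (SE 0.39, adjusted p = 0.0005) and -2.41 for CDC45 (SE 0.47, adjusted p = 0.0021). The differences were -2.13 for GINS1, -2.08 for GINS4, -1.71 for ORC6, -1.33 for GINS3 and -1.12 for GMNN. The GINS4 values at 48 h were near background, so its difference is compressed. Without replicate number 1 limma called 6 of the 10 genes (11.8% of all genes), with GINS4, CDC45 and ORC6 lost. Without number 3 it called 7, CDC6 among them as higher (27.2% of all genes), with GINS3, GMNN and CDT1 lost. Without number 2 it called 8 (9.77% of all genes), with CDT1 lost. With the block CDT1 was lost without number 3. Fibroblast markers moved with this change too, as their summed log2 values were 29.77 to 33.54 in CsA cultures at 48 h and 35.79 to 36.28 at 24 h, and their part in the result was not tested. CDT1, which was not called between these times in controls on all arrays, fell by 1.86 in CsA cultures (SE 0.42, adjusted p = 0.0051). The interaction reported above is the test of that contrast between treatments. On all arrays it did not call CDT1, and with the block but without the CsA 48 h array of replicate 1 it called CDT1 and GINS2, against 2.36% of all genes.

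CDC6 was the exception in CsA cultures too, at 9.39 ± 0.29 at 48 h and 8.41 ± 0.68 at 24 h (SD, n = 3 each). The difference of 0.97 had an SE of 0.37 and an adjusted p of 0.0686, and with the block it was called as a rise (adjusted p = 0.00357). With the block limma called all 10 genes, 9 lower and CDC6 higher, against 41.8% of all genes. The blocked CDC6 call was lost without replicate number 2. The second CDC6 probe set differed by 0.70 between these times. The comparisons over time and those against control share arrays, so their values stand side by side and are not independent.

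Differences between 24 and 12 h were small. In control cultures 0 of the 10 genes were called, against 0.0% of all genes, with 0 of the 10 and 131 of all genes at an unadjusted p below 0.05. In CsA cultures the median difference between 24 and 12 h was -0.46 and all 10 means were lower at 24 h, but 0 of 10 were called without the block (0.0% of all genes) and 0 with it (0.131% of all genes). Unadjusted p values there were below 0.05 for 1 gene without the block (486 of all genes) and 4 with it (1260 of all genes). The lowest of these differences were those of CDC6 (-0.75, SE 0.37), GINS3 (-0.64, SE 0.27) and ORC1 (-0.63, SE 0.44).

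Other genes of the pathway were read from lists chosen with earlier results of these data known. All 6 MCM2-7 subunits, the ring that the licensing factors load, had lower means in CsA at 48 h, with a median difference of -1.34. Limma called 0 of 6 without the block and 6 with it, against 0.439% and 10.8% of all genes, which also apply to the other lists at 48 h. MCM4 was at 7.61 ± 1.01 in CsA and 9.38 ± 0.55 in control cultures (SD, n = 3 each; adjusted p = 0.0603, or 0.0125 with the block), and MCM2 differed by -1.30 (SE 0.30, adjusted p = 0.065, or 0.00919 with the block). Of 17 firing and fork factors tested, all had lower means, and 1 was called without the block and 10 with it, with a median of -0.68. TICRR was listed and not tested. The single call was POLE2, a subunit of the leading-strand polymerase epsilon, at 6.56 ± 0.92 in CsA and 8.28 ± 0.45 in control cultures (SD, n = 3 each; adjusted p = 0.049). CDC7, the kinase that triggers firing, differed by -1.15 (SE 0.27, adjusted p = 0.0688, or 0.0129 with the block).

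Among 17 genes of licensing control, most of them acting through protein turnover or CDK activity, 13 had lower means at 48 h, and 0 were called without the block and 7 with it (median -0.73). DTL, the adaptor that directs CDT1 to degradation, differed by -1.73 (SE 0.41, adjusted p = 0.0693, or 0.0145 with the block). PCNA, the sliding clamp on which that degradation takes place, differed by -1.27 (SE 0.27, adjusted p = 0.0563, or 0.0126 with the block). Means were higher in CsA for CUL4B, DDB1, FZR1 and KAT7, none of which was called.

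**Figure D4:**
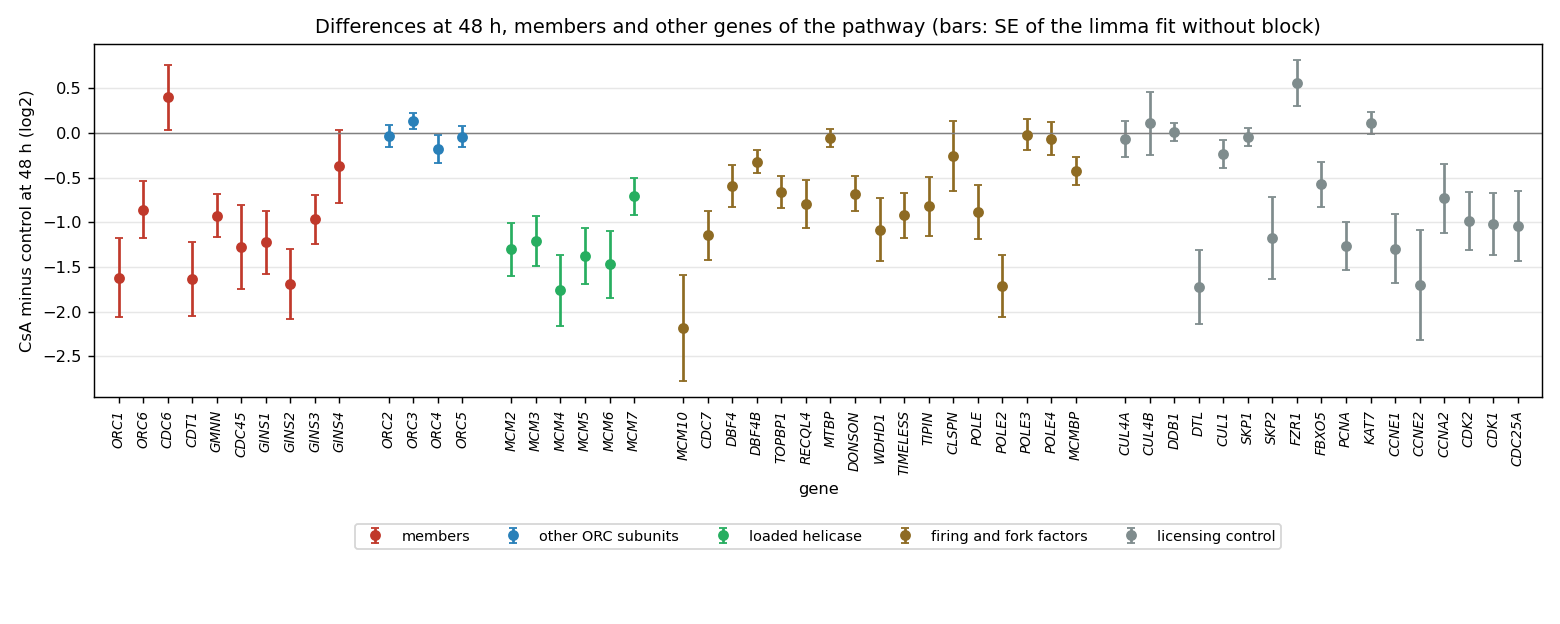
The vertical axis is the log2 difference at 48 h, CsA minus control, for the 10 genes in red and the other pathway genes grouped by colour, with SE bars from the limma fit without a block. The 4 other ORC subunits lie between -0.18 and 0.13 while the 6 MCM genes all lie below 0. Among the 10 genes CDC6 alone lies above 0.

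The genes outside the group whose profile over the 18 arrays was most like the mean of the 10 were BARD1 (Pearson r = 0.992), STMN1 (0.987), BLM (0.987), KIF11 (0.987) and ZWINT (0.987). BARD1 is the partner of BRCA1, STMN1 a microtubule regulator, BLM a DNA helicase, KIF11 a mitotic kinesin and ZWINT a kinetochore protein. At 48 h BARD1 was at 7.64 ± 0.61 in CsA and 8.85 ± 0.41 in control cultures, and ZWINT at 9.77 ± 0.86 in CsA and 11.18 ± 0.43 in control cultures (SD, n = 3 each). Neither passed without the block (limma adjusted p = 0.0677 and 0.0614), and both did with it (0.0125 and 0.00949). These genes were chosen by their likeness on the same arrays, so a difference at 48 h was built into the choice and the p values are no independent result. The arrays behind the coefficients share treatment, time and replicate number.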

How the data were processed

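RNA of 18 HK-2 cultures was measured on Affymetrix arrays, and groups follow the labels. The authors' deposited log2 values for 54675 probe sets were made with GCRMA, per the submitters' processing notes. GCRMA corrects background, normalizes between arrays and summarizes probe sets. The log2 scale was read from their range, since no label states the log base, and the set of arrays that was normalized together is not stated in the labels. GCRMA compresses differences near background, and the number of arrays limits the precision.

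Platform annotation gave 41097 probe sets 1 symbol and 1801 several, and 11777 are unnamed here. A check by gene identifier against RefSeq changed 0 symbols, and 42 had no match. The brightest single-symbol probe set of each gene was kept where its highest group mean was at least 4. All 18 arrays entered one limma 3.58.1 fit (R 4.3.3, lmFit and eBayes, defaults) with a term per group, and p values were adjusted over 10717 genes by Benjamini-Hochberg with a threshold of 0.05. Errors with a difference are SEs of that fit. Biological replicates are labelled as such, without saying how they were grown.

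Deviations from group means correlated between same-numbered arrays at 0.277 or more for any pair of groups, and the range for CsA against control cultures at equal times was 0.546 to 0.942. All 18 arrays were closest, outside their group, to one with their own number. The numbers were therefore treated as pairing the samples, which the data show and no label states, and values with replicate number as a block stand beside those without it.

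Promoter windows come from RefSeq (GRCh38.p14), and those of the 10 genes were taken without chromosome 8, which left out GINS4. The genes named are all 10 members, the 2 tested genes of each pathway list with the lowest p at 48 h, and the 5 other genes most correlated with the members' mean. Further list members are named, after their values were seen, where they complete a list or a small count. The members, lists and alternatives were chosen with earlier results of these data known. The fits with and without the block were also run on simulated data in which most of the variance was shared by replicate number by construction. That setting suits the block, and its outcome is not used as support here. Tables were handled in Python 3.11.15 with pandas 2.3.3 and drawn with matplotlib 3.10.9.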

Additional observations from a re-analysis of the deposited data

How the results depend on the processing

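With the replicate number as a block, the number of genes called was 1 at 24 h, against 0 without it. At 48 h it was 1153 with the block, against 47 without it. Between 48 and 24 h the block gave 3489 genes in control cultures (1552 without) and 4477 in CsA cultures (2702 without), and between 24 and 12 h in CsA cultures 14 (0 without). For the licensing and GINS genes at 48 h the block gave 8 calls, on all arrays and on the 48 h arrays alone, against 0 without it. Other settings moved the 48 h count of 47 genes to 28 with no level filter, 18 with a highest group mean of at least 6, 82 with probe sets averaged, 73 with a trended and robust eBayes, 0 on the 48 h arrays alone and 824 on those arrays with the block. The interaction count of 4 genes was 0 on its own arrays with and without the block. In control cultures between 48 and 24 h, the fit on those arrays alone gave 91 genes, 613 with the block, and 1 of the 10 genes, 6 with the block, while no level filter gave 4 of the 10. In CsA cultures between 48 and 24 h the fit on those arrays alone gave 1287 genes, and 6 of the 10 genes, 10 with the block. Leaving out 1 array or 1 replicate number gave 0 to 1 gene at 12 h, 0 to 1 at 24 h and 3 to 563 at 48 h. It gave 0 to 13 genes for the interaction, 265 to 1829 for control cultures between 48 and 24 h and 1047 to 2912 for CsA cultures between 48 and 24 h. Of the 10 genes it gave 0 to 6 at 48 h (0 to 8 with the block) and 1 to 8 in control cultures between 48 and 24 h (5 to 9 with the block). For the interaction it gave 0 of the 10 without the block and 0 to 2 with it, the 2 being GINS2 and CDT1 without the CsA 48 h array of replicate 1. The blocked leave-outs were chosen after seeing the data. Signs turned for genes that were not called. CDT1 at 24 h was 0.0065 with probe sets averaged and -0.21 to 0.10 over leave-outs. GINS4 at 48 h ranged from -0.72 to 0.064. In the interaction GINS4 ranged from -0.31 to 0.47 and ORC6 from -0.74 to 0.0138, and in control cultures between 48 and 24 h CDC6 ranged from -0.16 to 0.50 and CDT1 from -0.73 to 0.0181. The cause was not tested. On all 18 arrays the block changed the call of the 8 genes at 48 h and of CDC6 between 48 and 24 h in CsA cultures, and of no other of the 10 genes.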
